A study of Mus musculus with 16 samples.

Results

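The dystrophin-glycoprotein complex and the integrin complex are the main links between the contractile apparatus of a heart muscle cell and the matrix around it. At 9 weeks after transverse aortic constriction (TAC), 9 genes of these links were compared between ventricular myocytes of B3AR-Tg mice and of wild-type (WT) littermates. The genes were Dmd, Dag1, Sgca, Sgcb, Sgcd, Itga7, Itgb1, Ilk and Vcl, taken by symbol from the 35682 rows of the count table, and each symbol matched 1 row. No gene was chosen by a measured threshold, but the list was made with earlier results of these data known. Both groups had TAC, an operation that constricts the aorta and so loads the left ventricle, and no animals without the surgery were analysed here. Each genotype had 8 animals, labelled as biological replicates, all collected 9 weeks after the surgery. The line B3AR-Tg is named for the beta-3 adrenergic receptor. The labels used here do not give its promoter, the species of the transgene or the age and sex of the mice. Myocytes were isolated by Langendorff perfusion and plated for an hour before RNA extraction, so the values describe isolated cells and not intact heart.

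Dystrophin, the product of Dmd, is a long rod beneath the plasma membrane that binds actin at one end and the membrane protein dystroglycan, from Dag1, at the other. Dystroglycan binds laminin outside the cell through sugar chains, and the sarcoglycans, from Sgca, Sgcb and Sgcd among others, stabilise it in the membrane. Integrin alpha 7 and integrin beta 1, from Itga7 and Itgb1, form the main laminin receptor pair of adult striated muscle. Ilk (integrin-linked kinase) and Vcl (vinculin) couple integrins to actin at costameres, the rib-like attachment sites over the Z-discs. Loss of dystrophin or of a sarcoglycan causes muscular dystrophy, with cardiomyopathy in some of these forms. Itgb1, Ilk and Vcl are also expressed by many cells other than myocytes.

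None of the 9 genes differed between genotypes past the threshold. At a Benjamini-Hochberg adjusted p under 0.05 in edgeR's quasi-likelihood test, 0 of the 9 were called, against 4.91% of the 10945 genes tested. All 9 passed the filter on low counts, with 118 to 8795 counts per library. Levels are given as CPM, a gene's count per 1e6 counts of its library after TMM scaling. Without adjustment 3 of them, Itgb1, Dmd and Sgcb, had a p under 0.05, against 19.3% of all genes tested. DESeq2 and limma voom also called 0 of the 9. The groups overlapped for all 9 genes, while they did not overlap for 0.448% of the genes tested. The differences were small. In absolute size the log2 fold changes of the 9 had a median of 0.16, beside 0.15 over all genes tested. Over the 4013 tested genes at or above the level of Ilk, the lowest of the 9, that median was 0.12. Of the 9 estimates 5 were above 0 and 4 below. No 95% interval reached below 0.74-fold (Dmd) or above 1.34-fold (Sgcb).

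**Figure D1:**
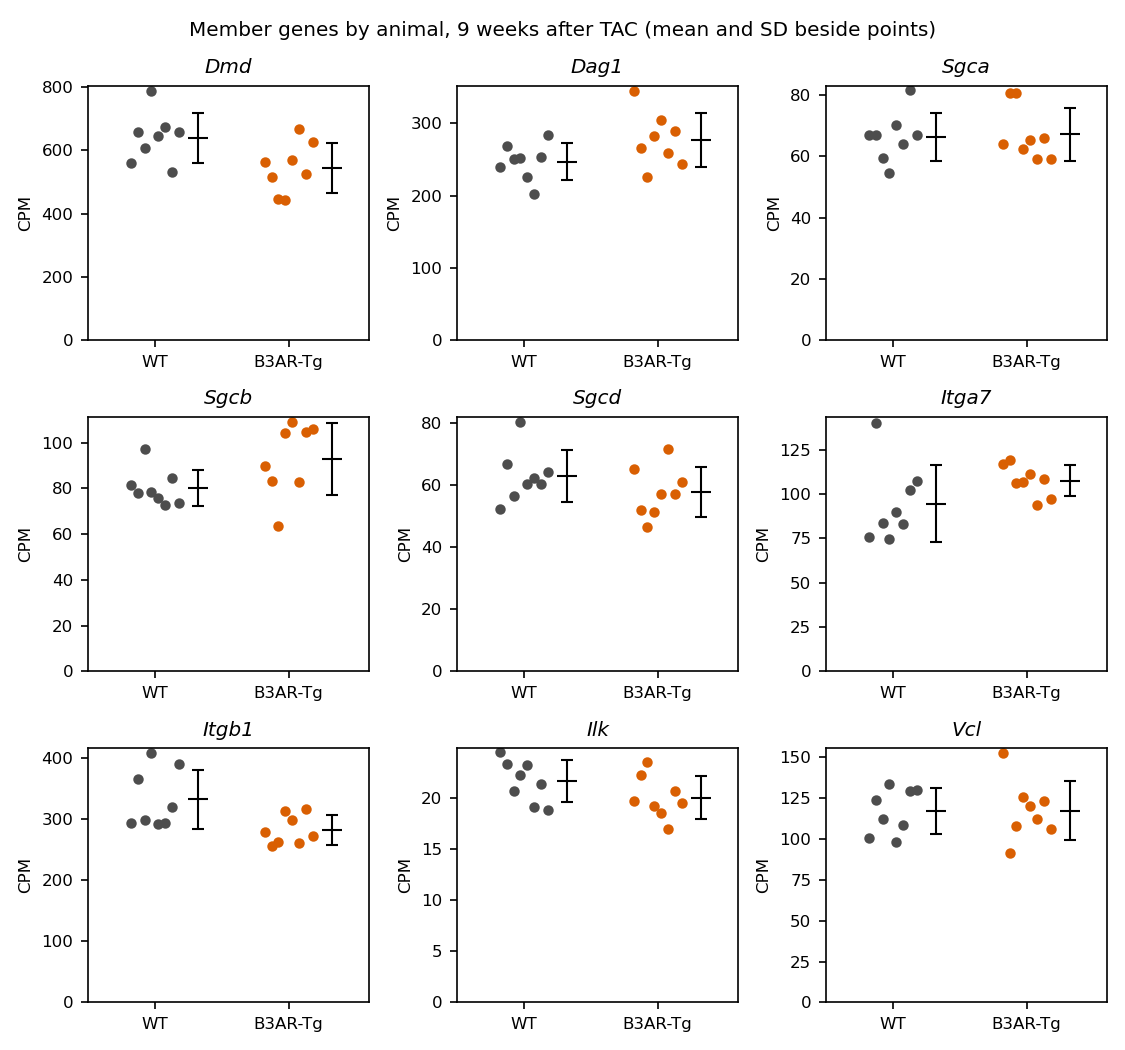
Level of each of the 9 genes in every animal, in CPM (linear axis from 0), with WT in grey and B3AR-Tg in orange, and the mean and SD of each group beside the points. The groups overlap in all 9 panels, and 4 B3AR-Tg points lie under all WT points for Dmd and 5 for Itgb1.

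The libraries held between 5985335 and 14365864 counts, with no difference in total between genotypes past the spread of the animals (exact permutation p = 0.136, two-sided). All 8 myocyte markers (Myh6, Tnnt2, Tnni3, Actn2, Ryr2, Ttn, Pln and Myl2) had counts in every library and summed to between 57841 and 101133 CPM, which matches the labelled cell type. Markers of other cells were far lower and were not even between genotypes. The 8 fibroblast markers summed to 110 ± 52.1 CPM (SD, n = 8) in WT and 34.2 ± 18.1 in B3AR-Tg, a log2 ratio of −1.69 (exact permutation adjusted p = 0.00435), with all 8 B3AR-Tg animals under the WT median. The 8 endothelial markers summed to 119 ± 15.9 CPM in WT animals and 83.7 ± 34.7 CPM in transgenic animals (exact permutation adjusted p = 0.0495). The 8 leukocyte markers summed to 9.76 ± 3.9 and 5.76 ± 2.45 CPM (exact permutation adjusted p = 0.0495). Each of these last calls was lost when any of 14 of the 16 animals was left out (exact permutation adjusted p up to 0.105). Mural cell markers (109 ± 24.9 and 104 ± 33.1 CPM, exact permutation adjusted p = 0.776) and the 6 Schwann and epicardial markers (2.14 ± 1.2 and 3.21 ± 1.17 CPM, exact permutation adjusted p = 0.117) did not pass. Taken singly in edgeR, 6 of 7 tested mural markers had estimates below 0 and 1 above, and 0 were called. The 6 load markers summed to 15262 ± 6978 CPM in WT and 5952 ± 2468 CPM in transgenic animals (exact permutation adjusted p = 0.00435). The part of these markers in the results below was not tested, except where the fit with a covariate is given. In bulk RNA, fewer cells of a type and less RNA per cell cannot be told apart.

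Upstream sequence is shown for Dmd and Sgcd, each of which was the closest gene to the other over all 16 animals with genotype means removed, and for Vcl, which like 1 of the 2 Dmd windows holds a CArG match. RefSeq windows on GRCm38.p6 were found for 8 of the 9 genes by symbol, 11 windows in all. The submitters' processing notes name another build, GRCm39, so these positions are those of the sequence table and not of the counts. Each window below is the 250 bases before an annotated start, 5′ to 3′ on the gene's strand. Capitals mark matches to the CArG box, the site bound by serum response factor, and to the MCAT motif CATTCC, the site bound by TEAD factors, both searched on both strands. Dmd is at chrX:82948620-82948869 (plus strand), Vcl at chr14:20929148-20929397 (plus strand) and Sgcd at chr11:47379326-47379575 (minus strand).
Dmd: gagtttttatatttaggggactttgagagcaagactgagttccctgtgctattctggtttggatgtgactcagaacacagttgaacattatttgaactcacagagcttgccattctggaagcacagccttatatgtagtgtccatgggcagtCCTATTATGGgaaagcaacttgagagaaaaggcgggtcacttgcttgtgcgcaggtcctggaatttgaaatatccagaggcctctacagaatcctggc
Vcl: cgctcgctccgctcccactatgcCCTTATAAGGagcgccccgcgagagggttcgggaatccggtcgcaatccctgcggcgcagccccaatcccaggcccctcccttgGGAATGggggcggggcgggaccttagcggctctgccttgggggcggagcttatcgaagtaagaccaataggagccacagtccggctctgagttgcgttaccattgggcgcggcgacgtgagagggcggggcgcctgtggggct
Sgcd: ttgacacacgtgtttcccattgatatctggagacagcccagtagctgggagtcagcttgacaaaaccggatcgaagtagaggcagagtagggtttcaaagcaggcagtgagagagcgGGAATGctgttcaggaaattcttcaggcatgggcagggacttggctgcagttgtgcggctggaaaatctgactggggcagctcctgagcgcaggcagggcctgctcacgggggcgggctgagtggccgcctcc
The Dmd window shown holds 1 CArG match, 98 bases before the start, and no MCAT match. The other Dmd window in the table, at chrX:85048045-85048294 (plus strand), holds no match to any of the motifs searched. The Vcl window holds 1 CArG match 227 bases before the start and 1 MCAT match 143 bases before it, and these do not overlap. The Sgcd window holds 1 MCAT match 133 bases before the start. Of the 11 windows, 2 held a CArG match and 3 an MCAT match (the third is that of Itgb1), while of all 32851 RefSeq windows of the same length, 1.47% held a CArG match and 12.6% an MCAT match. The E-box CANNTG, the site bound by myogenic and many other factors, was in 6 of the 11 windows and in 66.2% of all windows. A match is a description of the letters and not evidence of binding.

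Levels of different genes were compared per kilobase of the longest coding transcript in GENCODE M21. In WT, Itgb1 was highest at 87.2 ± 12.6 CPM per kilobase (SD, n = 8), and its lowest animal, 76.6, lay above the highest animal of any other of the 9 genes. Dag1 followed at 43.6 ± 4.42, Dmd at 42.9 ± 5.24 and Sgca at 38.4 ± 4.59 CPM per kilobase. Sgcd (25.6 ± 3.4), Itga7 (23.5 ± 5.42), Vcl (22.2 ± 2.66) and Sgcb (21.2 ± 2.09) lay lower on the same scale. Ilk was lowest at 12 ± 1.13 CPM per kilobase. Neighbours in this order overlapped between animals, except Itgb1 with Dag1 and Sgcb with Ilk. The place of Dmd depended on the length used. Its 3 coding transcripts span 1858 to 14910 bases, and on the median length of 4438 bases Dmd came first of the 9, at 144 CPM per kilobase, since the table does not separate the full-length muscle product from the short ones.

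Dmd was at 531, 651 and 785 CPM in the lowest, median and highest WT animal and at 443, 544 and 666 CPM in the corresponding B3AR-Tg animals. Under the lowest WT animal lay 4 of the 8 transgenic animals, and 1 lay above the WT median. The log2 fold change was −0.23 with a standard error of 0.097, and the 95% interval ran from −0.43 to −0.030 (edgeR adjusted p = 0.186). With library totals only the Dmd estimate was −0.15. Dag1, whose product is cut into the laminin-binding alpha and the membrane-spanning beta dystroglycan, was at 202, 251 and 284 CPM in WT and 225, 274 and 344 CPM in B3AR-Tg. Above the highest WT animal lay 3 transgenic animals. Its log2 fold change was 0.16, with an interval from −0.021 to 0.35 (edgeR adjusted p = 0.329). Dystrophin and its membrane anchor thus had estimates on opposite sides of 0, and neither passed.

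None of the 3 sarcoglycans passed. Sgcb, which with Sgcd forms the core of the sarcoglycan complex, was at 72.8, 78.1 and 97.3 CPM in WT (lowest, median, highest) and at 63.5, 97.0 and 109 CPM in B3AR-Tg. Of the transgenic animals 4 lay above the highest WT animal and 1, replicate 3, lay under the lowest. The log2 fold change of Sgcb was 0.21, with an interval from 0.0014 to 0.42 (edgeR adjusted p = 0.255). Sgcd was at 52.2, 61.2 and 80.1 CPM in WT and at 46.4, 57.0 and 71.4 CPM in B3AR-Tg. Under the WT range lay 3 transgenic animals, and the log2 fold change was −0.12, with an interval from −0.32 to 0.078 (edgeR adjusted p = 0.516). The Sgcd estimate was −0.063 without WT replicate 4, −0.048 with library totals only, −0.061 with limma voom and −0.011 with the other-cell covariate. Sgca, the sarcoglycan specific to striated muscle, was at 54.5, 66.8 and 81.5 CPM in WT and at 59.0, 64.7 and 80.5 CPM in B3AR-Tg, so all transgenic animals lay within the WT range. Its log2 fold change was 0.019, with an interval from −0.17 to 0.21 (edgeR adjusted p = 0.939). The sign of the Sgca estimate changed under 6 of 26 alternatives.

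Itga7 and Itgb1, the partners of one receptor, had estimates of opposite sign. Itga7 was at 74.5, 86.8 and 140 CPM in WT and at 93.8, 107 and 119 CPM in B3AR-Tg. All 8 transgenic animals lay above the WT median and none lay above the highest WT animal, replicate 2. The log2 fold change of Itga7 was 0.18, with an interval from −0.048 to 0.41 (edgeR adjusted p = 0.393). Without WT replicate 2, the highest animal, it was 0.29 (edgeR adjusted p = 0.0740). Itgb1 was at 292, 309 and 409 CPM in WT and at 256, 275 and 317 CPM in B3AR-Tg. Under the lowest WT animal lay 5 transgenic animals, and all 8 WT animals lay above the median of B3AR-Tg. Its log2 fold change was −0.24, with an interval from −0.42 to −0.054 (edgeR adjusted p = 0.130). With the level of other-cell markers as a covariate, the Itgb1 estimate was −0.043 (edgeR adjusted p = 0.911). With the same covariate the estimates of Dag1, Sgcb and Itga7 were 0.29, 0.36 and 0.29, farther from 0. None of these passed (edgeR adjusted p = 0.287, 0.231 and 0.430). The estimates of Ilk (−0.17), Vcl (0.24) and Sgca (−0.12) also lay farther from 0 than without the covariate.

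The 2 adaptor genes did not pass either. Ilk was at 18.8, 21.8 and 24.5 CPM in WT and at 16.9, 19.6 and 23.5 CPM in B3AR-Tg, and 2 transgenic animals lay under the WT range. Its log2 fold change was −0.11, with an interval from −0.29 to 0.065 (edgeR adjusted p = 0.498). The Ilk estimate was −0.037 with library totals only and −0.17 with the other-cell covariate. Vcl was at 97.9, 118 and 134 CPM in WT and at 91.4, 116 and 152 CPM in B3AR-Tg. Above the WT range lay 1 transgenic animal and below it 1 more, and the group means were 117 CPM in both. The log2 fold change of Vcl was 0.0016, with an interval from −0.20 to 0.20, or from 0.871-fold to 1.15-fold (edgeR adjusted p = 0.997). Its sign changed under 11 of 26 alternatives, and with the other-cell covariate its estimate was 0.24 (edgeR adjusted p = 0.372). For Vcl, as for the other 8 genes, a miss of the threshold does not show that the genotypes were alike. Each interval is that of a single gene in the fit on genotype only. The Vcl estimate with the covariate lay above the Vcl interval.

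**Figure D2:**
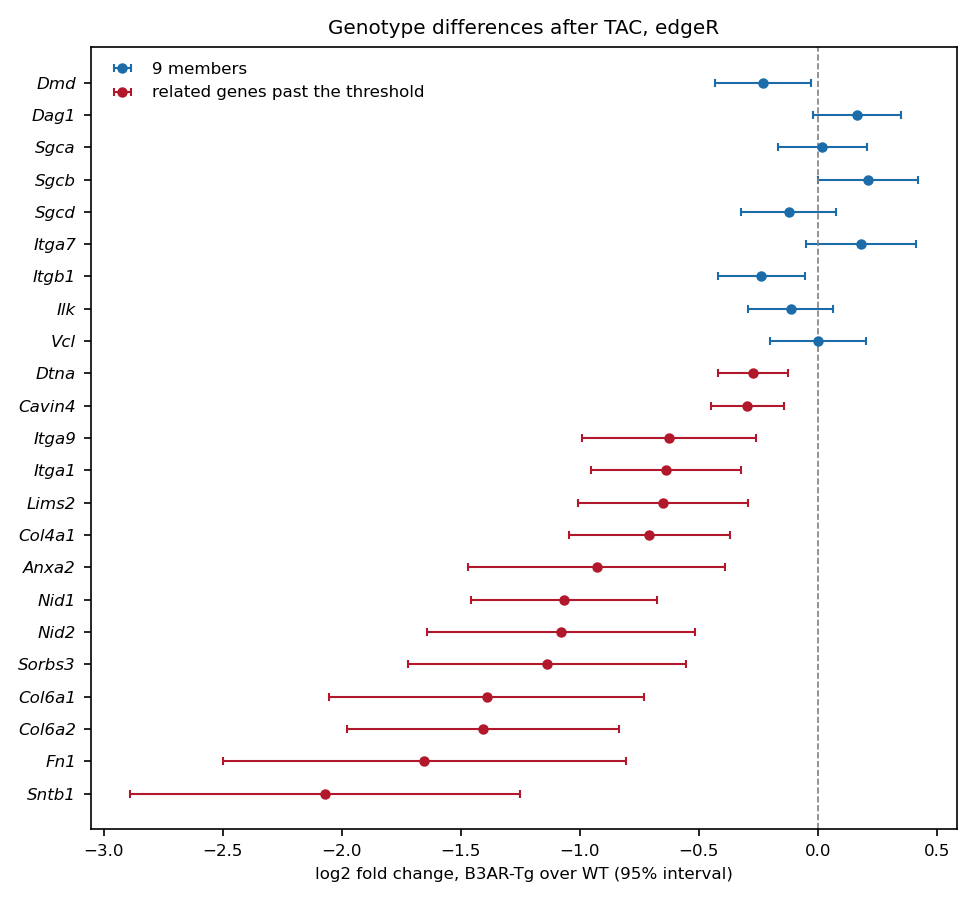
Log2 fold change of B3AR-Tg over WT with its 95% interval, for the 9 genes (blue) and for the 14 related genes that passed the threshold (red). The 9 estimates lie between −0.24 and 0.21, and the 14 related genes are all below 0, from −0.27 for Dtna to −2.07 for Sntb1.

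Because the estimates of partner genes had opposite signs, the ratio of counts of each of the 36 pairs of members within a library was compared. This comparison was added after the values above had been seen. A ratio within a library does not depend on how libraries are scaled, and it shows unequal change without saying which gene changed. After adjustment over the 36 pairs 4 ratios differed between genotypes, and 14 had an unadjusted p under 0.05. Itgb1 was in all 4, so these calls are not independent of each other. No count of such calls among pairs of other genes is given here.

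The ratio of Dag1 to Itgb1 separated the genotypes completely. It was 0.818, 0.735, 0.839, 0.616, 0.772, 0.689, 0.791 and 0.727 in WT replicates 1 to 8, and 1.23, 1.04, 0.859, 0.900, 1.02, 0.989, 0.913 and 0.894 in B3AR-Tg replicates 1 to 8. Every transgenic animal thus held more Dag1 counts per Itgb1 count than every WT animal. The ratio was 1.31-fold higher in B3AR-Tg, a log2 difference of 0.39 (exact permutation p = 0.000155, the smallest that 12870 splits can give, adjusted p = 0.00559). It passed without any one of the 16 animals (exact permutation adjusted p from 0.00559 to 0.0112). Among 4012 other genes at or above the level of Ilk, the ratio to Itgb1 did not overlap between genotypes for 1.5%, higher in B3AR-Tg for 1.47% (59 genes, Dag1 among them) and lower for 0.0249%. With Dag1 as the common denominator the share was 0.673%, higher for 0.0748% and lower for 0.598%. The ratio was also set against the other-cell marker level within genotypes (r = −0.091 for WT, exact permutation p = 0.829, and −0.27 for B3AR-Tg, exact permutation p = 0.507; rho = −0.024 and −0.26, exact permutation p = 0.977 and 0.536). That level itself differed between genotypes by −0.82 on the log2 scale (exact permutation p = 0.000932). Without the 2 animals farthest from the median marker level, r was −0.46 and −0.0071. With the load marker level, which differed between genotypes by −1.81 on the log2 scale (exact permutation p = 0.000622), the ratio had r = −0.021 for B3AR-Tg (exact permutation p = 0.957; rho = 0.095, exact permutation p = 0.840), and 0.063 without the 2 farthest animals. The WT animals fell into separate ranges of load, as described below, and the 3 with the most, replicates 2, 4 and 8, had ratios of 0.735, 0.616 and 0.727. The part of the load marker level in the ratio was not tested.

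The ratio of Itga7 to Itgb1 was 0.182, 0.282 and 0.384 in the lowest, median and highest WT animal and 0.340, 0.366 and 0.465 in B3AR-Tg, with all 8 transgenic animals above the WT median. The log2 difference was 0.44 (exact permutation adjusted p = 0.0336). It missed the threshold without WT replicates 1, 4 or 8 or B3AR-Tg replicates 1 or 5 (exact permutation adjusted p up to 0.0643). Within B3AR-Tg this ratio was lower where the other-cell marker level was higher (r = −0.86, exact permutation p = 0.00635, adjusted p = 0.157; rho = −0.86, exact permutation p = 0.0107, adjusted p = 0.332), and r was −0.56 without the 2 animals farthest from the median marker level. For WT r was 0.33 (exact permutation p = 0.425; rho = 0.26, exact permutation p = 0.536), and −0.091 without the 2 farthest animals.

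The ratio of Sgcb to Itgb1 was 0.189, 0.254 and 0.326 in WT and 0.242, 0.327 and 0.390 in B3AR-Tg (log2 difference 0.42, exact permutation adjusted p = 0.0420), with 7 of 8 transgenic animals above the WT median. The ratio of Itgb1 to Vcl was 2.47, 2.93 and 3.06 in WT and 1.83, 2.50 and 2.80 in B3AR-Tg (log2 difference −0.22, exact permutation adjusted p = 0.0420), with all 8 transgenic animals under the WT median. The 3 WT animals with the highest load marker level had the lowest ratios of Sgcb to Itgb1, 0.213, 0.192 and 0.189 in replicates 2, 4 and 8. In B3AR-Tg that ratio had r = −0.49 with the load level (exact permutation p = 0.206, adjusted p = 0.610; rho = −0.71, exact permutation p = 0.0576, adjusted p = 0.476), and −0.81 without the 2 farthest animals. Neither call held through the loss of single animals. The first missed the threshold without WT replicates 1, 4, 5, 6 or 8 or B3AR-Tg replicates 1, 2, 4, 5, 7 or 8 (adjusted p up to 0.0895 by exact permutation). The second missed it without WT replicates 1, 4, 5, 6 or 8 or B3AR-Tg replicates 1, 4, 5 or 7 (adjusted p up to 0.0881 by exact permutation). The ratios of Dmd to Sgcb (log2 difference −0.43) and of Dmd to Dag1 (−0.39) came next and did not pass (exact permutation adjusted p = 0.0541 for both).

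**Figure D3:**
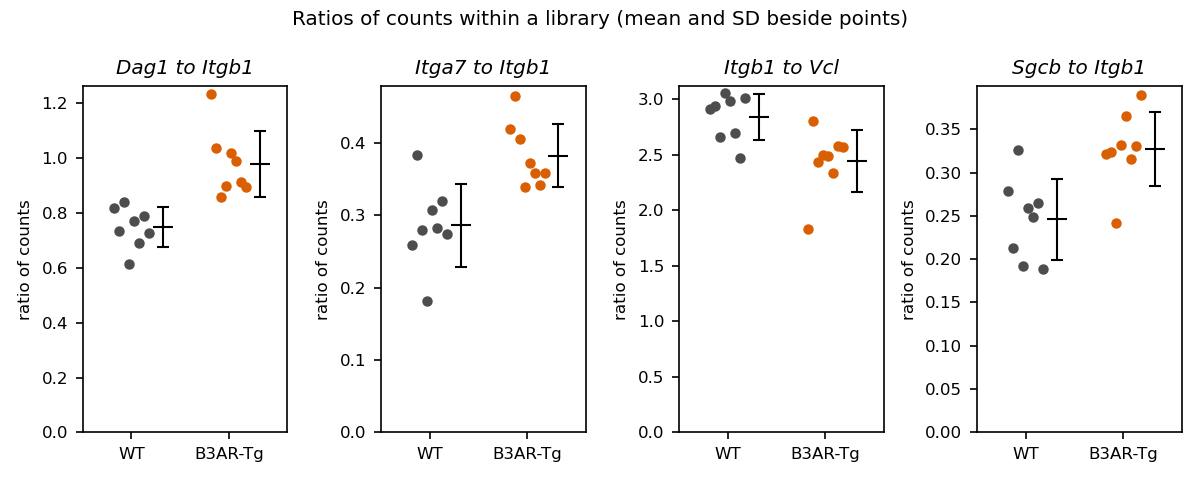
Ratio of counts within each library for the 4 pairs that passed the adjustment over 36 pairs (linear axes from 0, WT in grey, B3AR-Tg in orange, mean and SD of the ratios beside the points). The 8 B3AR-Tg animals sit above all 8 WT animals for Dag1 to Itgb1, from 0.859 against 0.839, and the groups overlap in the other panels.

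The 9 genes did not vary as 1 block across animals. After each genotype's mean was subtracted, the closest of the 10944 other tested genes to Dmd over the 16 animals was Sgcd (Pearson r = 0.87 on log2 CPM), and the closest to Sgcd was Dmd. For no other of the 9 genes was a fellow member among the 3 closest. The closest member was 45th for Dag1 (Vcl, r = 0.72) and 1857th for Sgcb (Dag1, r = 0.41). Within genotypes Dmd and Sgcd had r = 0.83 in WT (exact permutation p = 0.0134, adjusted p = 0.185) and r = 0.89 in B3AR-Tg (exact permutation p = 0.00424, adjusted p = 0.157), with rho = 0.76 and 0.86 (exact permutation p = 0.0368 and 0.0107, adjusted p = 0.437 and 0.332). Without the 2 animals with the most extreme Dmd, r was 0.92 and 0.85. Dmd and Dag1 had r = −0.025 for WT and 0.12 for B3AR-Tg (exact permutation p = 0.954 and 0.767; rho = 0.0 and 0.024, exact permutation p = 1.0 and 0.977), and −0.058 and 0.39 without the 2 farthest animals. Itga7 and Itgb1 in B3AR-Tg had r = 0.13 (exact permutation p = 0.763; rho = 0.095, exact permutation p = 0.840), and 0.24 without the 2 farthest animals. In all 124 relations were computed over 8 animals each. By Pearson's r 0 passed after adjustment and by Spearman's rho 1 did, Itgb1 with Vcl in WT, where the animals fell into separate ranges of Itgb1, as described below, so that its coefficient is not given. All values share their library and its scaling.

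By the rule of likeness given above, other genes lay closest to the remaining members. Over the 16 animals Itgb1 was closest to Msn (r = 0.91), F2r (0.89) and Vezf1 (0.89), and Vcl to Ccn2 (0.91), Pakap (0.91) and Nuak1 (0.90). Dag1 was closest to Fgfrl1 (0.82), Lamc1 (0.82), a laminin chain, and Ipo4 (0.82). Itga7 was closest to Adgra3 (0.87), Rap1gap (0.82) and Pip4k2c (0.81). Sgca was closest to Mapk9, Mtx1 and Gpr137 (0.85 to 0.87), Sgcb to Cdadc1, Rgmb and Sertad2 (0.90 to 0.91) and Ilk to Ocel1, Slc25a26 and Tigd5 (0.80 to 0.84). After Sgcd and Dmd themselves, Dmd was closest to Zfc3h1 (0.81) and Unc13b (0.80), and Sgcd to Taok1 (0.85) and Tmx4 (0.84). These are the highest of many values and carry no test.

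The WT animals fell into separate ranges of Itgb1. Replicates 2, 4 and 8 were at 365, 409 and 390 CPM, and the other 5 were between 292 and 320 CPM. The same 3 animals had the highest mean log2 CPM of the 6 load markers, 11.6, 11.6 and 11.3, against 9.74 to 10.5 in the others. With groups of 3 and 5 no correlation within WT can be given for this relation or for Itgb1 with Vcl. In B3AR-Tg, where the load marker level was 8.05 to 9.99, Itgb1 had r = 0.19 with it (exact permutation p = 0.664) and rho = 0.071 (exact permutation p = 0.882), and r = −0.78 without the 2 animals farthest from the median load level, so no relation held.

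**Figure D4:**
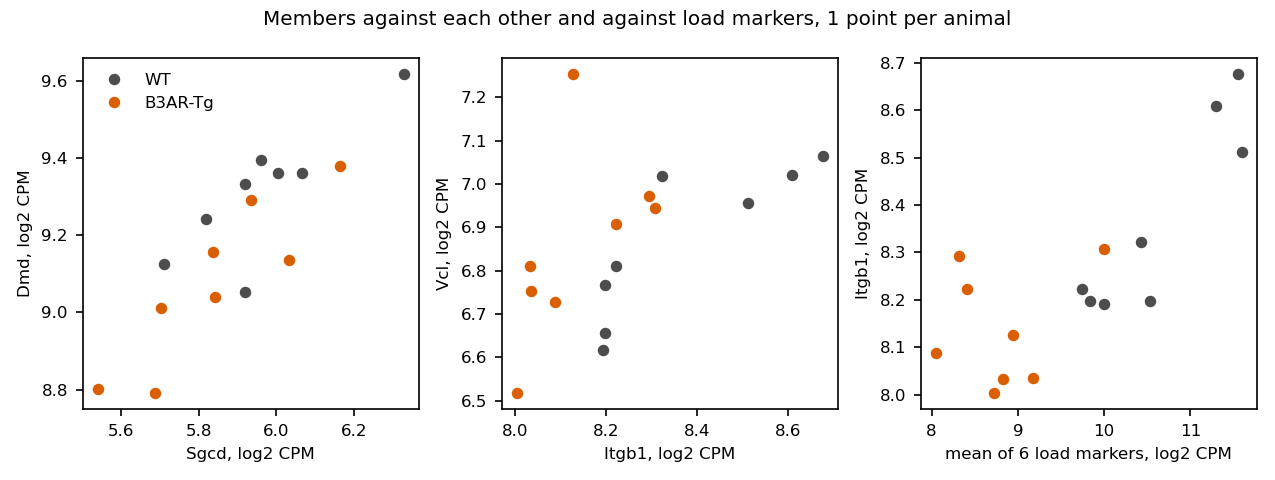
Log2 CPM of Dmd against Sgcd, of Vcl against Itgb1 and of Itgb1 against the mean of the 6 load markers, with 1 point per animal (WT grey, B3AR-Tg orange). Dmd and Sgcd tend to rise together in both genotypes, though neither correlation passed after adjustment. At a high Itgb1 and a high load marker level 3 WT animals stand apart.

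A wider set of genes around the complexes, also listed with earlier results of these data known, was read in the same fit. Of 123 related genes found in the table, 98 were tested and 14 fell in B3AR-Tg, while none rose (edgeR, adjusted over all genes tested). Over all genes 2.88% were called lower and 2.03% higher. The median log2 fold change of the 98 was −0.11, beside 0.0060 over all genes tested. Fibroblast, endothelial and leukocyte markers were lower in the same animals, by the sums given above. With the other-cell marker level as a covariate 0 of the 14 passed, and 21 genes passed in all. Leaving out 1 animal changed the number called by over 1.5 times for WT replicate 2 (9 called), WT replicate 8 (8), B3AR-Tg replicate 5 (5) and B3AR-Tg replicate 8 (8).

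Among relatives and cytoplasmic partners of dystrophin, 2 of 7 tested genes fell, beside 2.88% called lower over all genes. Sntb1, a syntrophin adaptor that binds dystrophin and utrophin, was at 0.949, 2.93 and 8.84 CPM in the lowest, median and highest WT animal and at 0.241, 0.895 and 1.67 CPM in B3AR-Tg. No transgenic animal lay above the WT median, and the log2 fold change was −2.07 (standard error 0.39, edgeR adjusted p = 0.0059). With the other-cell covariate the Sntb1 estimate was −1.68 (edgeR adjusted p = 0.231). Dtna (alpha-dystrobrevin), which binds dystrophin and syntrophins, was at 92.4, 102 and 105 CPM in WT and at 69.3, 84.2 and 91.6 CPM in B3AR-Tg. All 8 transgenic animals lay below all WT animals, and the log2 fold change was −0.27 (standard error 0.070, edgeR adjusted p = 0.0284). Its call was lost without WT replicates 2 or 4 or B3AR-Tg replicate 5 (edgeR adjusted p up to 0.0654) and under 4 of 10 alternatives of method (up to 0.248), the last with the other-cell covariate, under which its estimate was −0.26. Utrn, the dystrophin homologue utrophin, had an estimate of −0.26 (edgeR adjusted p = 0.165), and Cav3 of −0.17 (edgeR adjusted p = 0.238). Of the other sarcoglycans and sarcospan, 0 of 3 tested genes passed, beside 4.91% over all genes. Among them Sspn (sarcospan) was at 148 ± 26.0 CPM in WT animals and 147 ± 23.7 CPM in transgenic animals (edgeR adjusted p = 0.980).

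The enzymes that build the laminin-binding sugar chains of dystroglycan held no called gene, 0 of 17 tested beside 4.91% called over all genes. This count is near the background, and the median log2 fold change was 0.096. Pomk had an estimate of 0.40 (edgeR adjusted p = 0.124). Of the laminins and other matrix ligands 6 of 16 fell, beside 2.88% called lower over all genes. They were Nid1 (log2 fold change −1.07, edgeR adjusted p = 0.00425), Col6a2 (−1.41, adjusted p = 0.00668), Col6a1 (−1.39, adjusted p = 0.0159), Col4a1 (−0.71, adjusted p = 0.0161), Fn1 and Nid2. These encode nidogens, collagen chains and fibronectin, and no laminin chain was among them. Over the 10 alternatives of method, the other-cell covariate among them, Nid1 ranged from −1.09 to −0.39 and Col6a2 from −1.42 to −0.50. Over the same alternatives Col6a1 ranged from −1.40 to −0.23 and Col4a1 from −0.71 to −0.33. Lama2, the laminin chain that dystroglycan and integrin alpha 7 bind in muscle, was at 96.1 ± 5.97 CPM in WT and 91.2 ± 10.6 in B3AR-Tg (edgeR adjusted p = 0.640). Fibroblast markers, several of them collagens, were lower in the same animals.

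Among the other integrins 2 of 11 tested genes fell, beside 2.88% called lower over all genes. Itga1, a collagen-binding partner of beta 1, was at 29.7, 35.7 and 42.6 CPM in WT and at 11.9, 23.1 and 31.5 CPM in B3AR-Tg, with 6 transgenic animals under the WT range (log2 fold change −0.64, standard error 0.15, edgeR adjusted p = 0.0199). Without B3AR-Tg replicate 5 its edgeR adjusted p was 0.0502. Itga9 fell by 0.62 on the log2 scale (−0.62, edgeR adjusted p = 0.0420), a call that was lost when any of 11 of the 16 animals was left out (edgeR adjusted p up to 0.0962). Itga5, Itga6 and Itgb5, with estimates of −0.017, −0.16 and −0.18, did not pass (edgeR adjusted p = 0.981, 0.514 and 0.451). With the other-cell covariate the estimates of Itga1 and Itga9 were −0.14 and −0.19.

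Of the integrin adaptors and costamere genes 2 of 32 tested fell, beside 2.88% called lower and 4.91% called in either direction over all genes, so this count is near the background. They were Sorbs3 (vinexin, a vinculin-binding protein; log2 fold change −1.14, edgeR adjusted p = 0.0233) and Lims2 (PINCH2, a partner of Ilk; −0.65, edgeR adjusted p = 0.0331). Both were low, at 3.89 ± 1.82 and 7.01 ± 0.871 CPM in WT and 1.80 ± 0.561 and 4.52 ± 1.53 CPM in B3AR-Tg. Sorbs3 missed the threshold without WT replicates 4 or 8 or B3AR-Tg replicates 5 or 8 (edgeR adjusted p up to 0.0608), and Lims2 without any of 8 animals (up to 0.0804). The abundant Ilk partner of the same family, Lims1, was at 212 ± 34.7 CPM in WT and 268 ± 35.7 in B3AR-Tg, with an estimate of 0.34 (edgeR adjusted p = 0.0575), which did not pass. The other partner in that complex, Parva, had an estimate of 0.013 (edgeR adjusted p = 0.977). The talins, which link integrin beta tails to vinculin and actin, did not pass, with estimates of −0.23 for Tln1 and −0.00028 for Tln2 (edgeR adjusted p = 0.364 and 0.9996). Of the 32 estimates of this list 9 lay above 0 and 23 below. Among genes of membrane repair and muscular dystrophy 2 of 12 fell, beside 2.88% called lower over all genes. The 2 were Cavin4, a muscle caveolar coat protein (log2 fold change −0.30, edgeR adjusted p = 0.0232), and Anxa2, an annexin (−0.93, edgeR adjusted p = 0.0416). Cavin4 missed the threshold without WT replicate 4 or B3AR-Tg replicates 5 or 8 (edgeR adjusted p up to 0.0579), and Anxa2 without any of 10 animals (up to 0.0971). Each was also lost under 4 of 10 alternatives of method. With the other-cell covariate the Cavin4 estimate was −0.31 (edgeR adjusted p = 0.193), as large as without it. Over the 10 alternatives of method, that covariate among them, the Anxa2 estimate ranged from −0.93 to −0.15. Over the same alternatives Lims2 ranged from −0.75 to −0.24 and Sorbs3 from −1.14 to −0.71.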

How the data were processed

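RNA of ventricular myocytes from 16 mice, 8 WT and 8 B3AR-Tg, was depleted of ribosomal RNA and sequenced from both ends as stranded libraries, per the labels' protocols. The authors deposited 1 table of estimated counts per gene, whole numbers without normalization. Salmon and the build GRCm39 are named in the submitters' processing notes. Versions, the annotation and the way estimates became whole numbers are not given in the sources used here, nor is the sharing of reads between similar genes. Each column matched 1 animal by its label. No 2 libraries of a genotype agreed within sampling noise (chi-square per gene 5.82 to 52.8). Nothing in the labels says more of the replicates than that they are biological.

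Genes were tested with edgeR 4.0.16 (quasi-likelihood F test, genotype only, TMM factors, filterByExpr with minimum count 10 and minimum total 15) in R 4.3.3, adjusted over 10945 genes, threshold 0.05, two-sided. CPM are TMM-scaled, and 3 counts corresponded to 0.201 to 0.487 CPM (counting error only). Standard errors are |log2 fold change| over the root of F. Log2 CPM used a prior count of 2. DESeq2 1.42.0 and limma 3.58.1 (voom) were alternatives. Single values were compared by exact permutation over 12870 splits, and correlations by exact permutation of 8 animals. Genes named by a rule were the 9 members, up to 4 called genes with the smallest p in each related list, and the 3 genes closest to each member. Other related genes named above fall outside this rule. Most of them did not pass, and they are not all such genes of their lists. The members and lists were chosen with earlier results of these data known.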

Additional observations from a re-analysis of the deposited data

Results flagged for a closer look

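The lowest animal stood apart from the other 7 of its genotype in 2 of 30 groups searched, where chance gives about 1 in 20 groups, or 1.5. For the log2 ratio of Itgb1 to Vcl, B3AR-Tg replicate 1 was at 0.872, and the others were between 1.22 and 1.49. For the log2 ratio of Sgcb to Itgb1, B3AR-Tg replicate 3 was at −2.04, and the others were between −1.66 and −1.36. Without these animals the difference in the first ratio was −0.17 (exact permutation adjusted p = 0.0769) and that in the second was 0.48 (exact permutation adjusted p = 0.0168).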

How the results depend on the processing

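All 9 members stayed past no threshold under 26 alternatives each, 10 of method and 16 that left out 1 animal, and 7 of the 9 kept the sign of their estimate throughout. Vcl changed sign with RLE factors (−0.000609), upper quartile factors (−0.00594), DESeq2 (−0.000763) and the replicate block (−0.00404), and ranged from −0.057 to 0.047 without single animals. Sgca changed sign with limma voom (−0.042) and the other-cell covariate (−0.12), and ranged from −0.022 to 0.067 without single animals. The number of genes called was 804 with DESeq2, 230 with the replicate block, 21 with the other-cell covariate and 272 to 675 without single animals (272 without WT replicate 4, 277 without B3AR-Tg replicate 5 and 345 without B3AR-Tg replicate 8). The 14 related genes became 9 with library totals only (8 of them among the 14), 4 with the replicate block, 0 with the covariate and 5 to 19 without single animals. The covariate differs between genotypes itself, and the cause of the other changes was not tested. With library totals only 346 genes were called higher and 165 lower, against 222 and 315 in the main analysis. The deviations of same-numbered animals from their genotype means had correlations from −0.22 to 0.094. Differently numbered animals were not compared, so these values cannot decide whether the numbers pair animals. The 4 member ratios became 1 to 10 without single animals, and Dag1 to Itgb1 was called each time. The endothelial log2 ratio missed the threshold with library totals only (−0.43) and without mitochondrial genes and Gm20594 (−0.50), and ranged from −0.72 to −0.41 without single animals. The leukocyte log2 ratio did so too (−0.67 and −0.76, and −0.86 to −0.61). The mural log2 ratio turned to 0.011 with library totals only and ranged from −0.14 to 0.054 without single animals. With mean log2 CPM in place of summed CPM the mural difference was −0.34 and did not pass. The myocyte log2 ratio passed with library totals only (0.25).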
